A study of Homo sapiens with 6 samples.

Results

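The matrix metalloproteinases (MMP genes), the ADAMTS proteases and their tissue inhibitors (TIMP genes) were followed in YAPC cells, a human pancreatic cancer line, after induction of the transcription factor GLI2. Members were the genes of the deposited table named MMP, ADAMTS or TIMP directly followed by a number, so that ADAMTS-like and antisense genes were left out, and 47 of the 25442 genes kept met this rule. They comprised 24 MMP, 19 ADAMTS and 4 TIMP genes, with the pseudogene MMP23A counted among the MMP genes. The 3 iGLI2 libraries came from cells with the pRetroX-Tight-Puro plasmid carrying GLI2, and the 3 iEV libraries from cells with the same plasmid left empty. Both lines contained the rtta activator that Doxycycline (Dox) switches on, and both had been kept in 1 μg/ml Dox for 6 days. Whether a line was 1 clone or a pool is not given in the sources used here. The methods describe biological replicates for the experiments of the study in general, but do not say for these libraries which came from separate cultures, so p-values measure only the spread between them.

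MMPs and ADAMTS proteases are zinc-dependent enzymes that are made as inactive precursors and, once a propeptide has been removed, cut matrix proteins outside the cell. TIMPs bind the active site of the enzymes and block it, and TIMP3, which stays attached to the matrix, also blocks several ADAM and ADAMTS proteases. In pancreatic cancer much of the MMP and TIMP protein comes from stromal cells, which are not part of a cell line culture.

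Values of a group are given in the order of replicates 1, 2 and 3. GLI2 was measured at 0.466, 0.412 and 0.344 FPKM in the iEV libraries and at 94.5, 207 and 195 FPKM in the iGLI2 libraries, so each library had the GLI2 level of its label and iGLI2 replicate 1 had the lowest of the induced libraries. FPKM are fragments scaled to transcript length and library size, and the number of reads behind them is unknown. Summed over all genes they came to between 981341 and 1082684 in iEV and between 803145 and 889555 in iGLI2 libraries. A single small RNA gene, MIR4461, held 42.6% to 45.4% of these sums in iEV and 35.7% to 37.7% in iGLI2 libraries. Of 6 epithelial and ductal markers, 4 had a mean of at least 1 FPKM, among them EPCAM and CDH1. The other two, KRT8 and KRT18, are listed at 0 in all 6 libraries, although epithelial cells make both in quantity, so a 0 in this table was not read as absence. The summed level of 7 fibroblast markers was 1.51 to 1.63 FPKM in iEV and 2.40 to 3.09 FPKM in iGLI2 cells, nearly all of it COL1A1, with DCN listed at 0. That of 5 leukocyte markers was 4.18 to 5.43 and 1.36 to 2.09 FPKM, nearly all of it CD14. The sum of 4 endothelial markers stayed between 0.424 and 0.599 FPKM, within which KDR was higher and VWF lower in each iGLI2 library. The part of these markers in the results was not tested.

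Of the 47 members, 15 averaged at least 1 FPKM across the libraries and are called expressed here, against 49.1% of all genes. These were all 4 TIMP genes, 9 MMP genes and 2 ADAMTS genes. A further 13 had a mean of 0.1 to under 1 FPKM, 9 had a mean above 0 and under 0.1 FPKM, and 10 are listed at 0 in all 6 libraries. Expressed members were tested with limma on log2(FPKM + 1) together with all 12493 genes of that level, and p-values were adjusted over all of them. At an adjusted p under 0.05, 8 expressed members were higher in iGLI2 cells (MMP1, MMP2, MMP11, MMP13, MMP14, MMP15, MMP24 and TIMP4), 2 were lower (MMP7 and TIMP3) and 5 were not called. Over all genes tested, 21.9% were called, 10.1% as higher and 11.8% as lower. For 4 of the 8 higher members (MMP1, MMP2, MMP11 and MMP13) the mean was under 1 FPKM in iEV cells, so that only their iGLI2 level took them into the test and they had to differ. Of the other 11, 4 were higher, 2 lower and 5 not called. No share was taken over all genes with means of at least 1 FPKM in both groups. The 21.9% above includes genes that passed through 1 group only. Without iGLI2 replicate 1, 9 members were higher and 3 lower, in a fit that called 3744 of 12495 genes. Each fit without another library called between 1222 and 2165 genes. Among the fits with a library left out, the lowest counts were 5 higher, without iEV replicate 2, iGLI2 replicate 2 or iGLI2 replicate 3, and 1 lower, without any 1 of the iEV libraries or without iGLI2 replicate 3. The balance between directions over all genes depended on scaling, with 46.0% of the called genes higher as deposited and 59.4% when small RNA genes were left out and the libraries rescaled, a setting that gave 9 higher and 2 lower members, with MMP17 as the one gained.

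**Figure D1:**
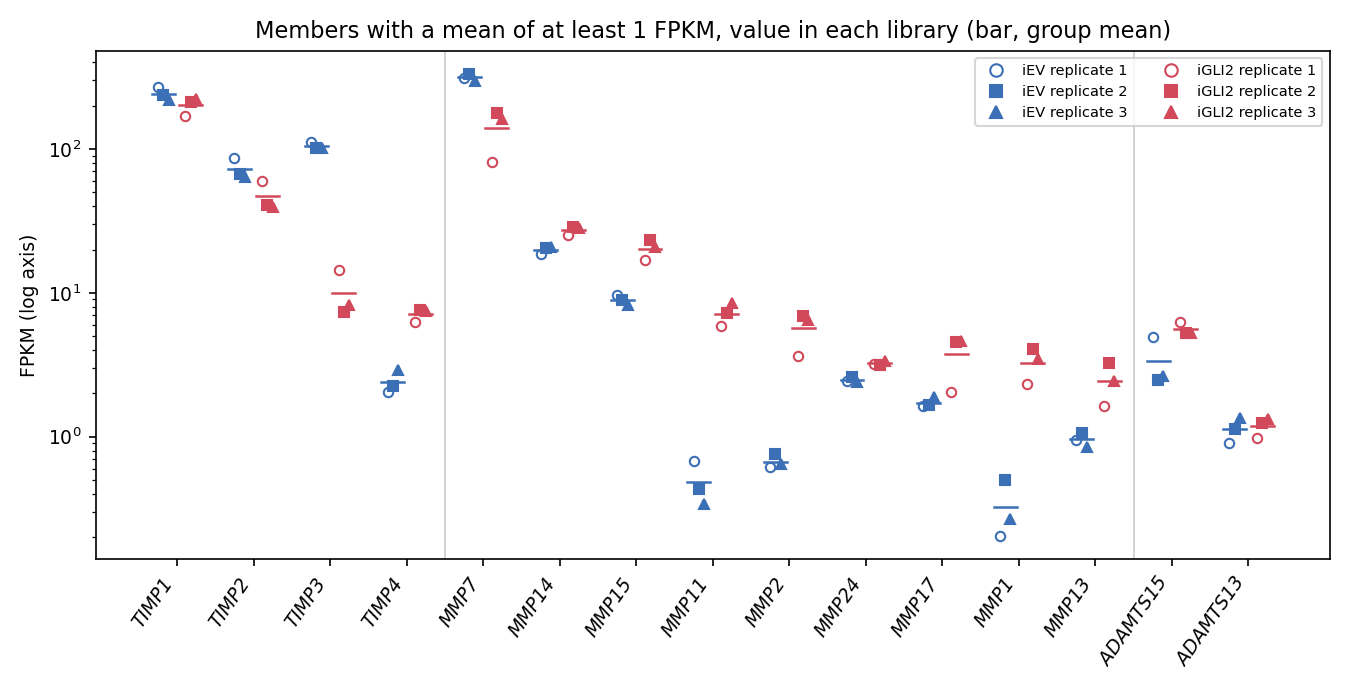
FPKM on a log axis for the 15 expressed members, with iEV libraries in blue, iGLI2 libraries in red, a symbol for each replicate and a bar at the group mean. TIMP3 dropped from between 101 and 112 FPKM to between 7.33 and 14.3 FPKM, while MMP1, MMP2 and MMP11 lay under 1 FPKM in every iEV library and above 2 FPKM in every iGLI2 library.

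The sequences before the transcription start are shown for the called members with the largest changes among those in the RefSeq promoter table, which holds 27 of the 47 members and 9 of the 15 expressed ones. They are the 250 bases before the annotated start in GRCh38.p14, written 5′ to 3′ on the strand of the gene. These are TIMP3 at chr22:32801455-32801704 on the plus strand, MMP7 at chr11:102530748-102530997 on the minus strand, MMP11 at chr22:23772599-23772848 on the plus strand, TIMP4 at chr3:12158913-12159162 on the minus strand and MMP15 at chr16:58025504-58025753 on the plus strand. Capitals mark matches on either strand to TGANTCA (the AP-1 motif), TATAAA (the TATA box), GGGCGG (the GC box) and GACCACCCA (the GLI motif), none of which overlapped another in these windows.
TIMP3: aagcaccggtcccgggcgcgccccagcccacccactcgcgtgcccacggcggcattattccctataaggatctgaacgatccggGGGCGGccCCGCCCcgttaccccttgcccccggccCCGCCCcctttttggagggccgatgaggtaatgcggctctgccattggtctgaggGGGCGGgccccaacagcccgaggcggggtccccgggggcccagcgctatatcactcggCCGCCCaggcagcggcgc
MMP7: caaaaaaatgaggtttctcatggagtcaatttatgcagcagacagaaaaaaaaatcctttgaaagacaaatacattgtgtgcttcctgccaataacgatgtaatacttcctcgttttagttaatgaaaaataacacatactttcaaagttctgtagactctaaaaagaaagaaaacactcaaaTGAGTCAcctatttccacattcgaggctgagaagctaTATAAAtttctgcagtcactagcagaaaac
MMP11: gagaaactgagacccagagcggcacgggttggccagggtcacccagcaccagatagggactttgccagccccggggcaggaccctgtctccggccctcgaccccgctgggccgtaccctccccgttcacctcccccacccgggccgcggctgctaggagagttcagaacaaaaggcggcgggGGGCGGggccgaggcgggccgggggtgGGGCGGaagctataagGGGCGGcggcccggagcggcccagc
TIMP4: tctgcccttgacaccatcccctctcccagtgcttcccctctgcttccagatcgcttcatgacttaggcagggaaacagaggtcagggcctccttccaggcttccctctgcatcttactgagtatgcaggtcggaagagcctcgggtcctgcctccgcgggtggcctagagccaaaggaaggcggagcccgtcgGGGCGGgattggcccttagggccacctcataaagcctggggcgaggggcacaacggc
MMP15: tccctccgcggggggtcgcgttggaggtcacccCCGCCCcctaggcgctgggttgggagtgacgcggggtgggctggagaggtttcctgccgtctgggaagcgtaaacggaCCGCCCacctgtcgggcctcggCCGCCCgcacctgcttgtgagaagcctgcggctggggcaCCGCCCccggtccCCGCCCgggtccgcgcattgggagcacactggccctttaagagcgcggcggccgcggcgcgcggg

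MMP7 was the sole one of these 5 with an AP-1 motif, at bases 67 to 61 before the start, and with a TATA box, at bases 30 to 25. Over all 35116 entries of the table, 6.57% hold TGANTCA and 10.7% hold TATAAA in this window. GC boxes were matched 5 times before TIMP3, 5 times before MMP15, 3 times before MMP11, 1 time before TIMP4 and not before MMP7, and 42.6% of all entries hold at least 1. The letters GACCACCCA were not found before any of the 9 expressed members in the table, and 0.199% of all entries hold them. The MMP7 window was 33.6% G and C with 3 CG dinucleotides, and the TIMP3 window was 72.4% G and C with 26, beside medians of 58% and 11 over all entries. Matches are letters in a window and not measured sites, and which start the cells used was not measured.

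Among the inhibitors, TIMP3 was lower and TIMP4 higher in iGLI2 cells, and TIMP1 and TIMP2 were not called. TIMP3 (chromosome 22, 33197691 to 33259028 of hg19, plus strand) had 112, 101 and 102 FPKM in the iEV libraries. In the iGLI2 libraries it had 14.3, 7.33 and 8.29 FPKM. The groups were far apart, and the iGLI2 library with the lowest GLI2 level kept the most TIMP3. The ratio of means was 10.5-fold lower in iGLI2 cells, and the log2 fold change was -3.32 (95% interval -3.89 to -2.76, adjusted p = 0.000618 in limma). Leaving out single libraries kept it between -3.59 and -3.15. The gene lies inside SYN3, which runs on the opposite strand and shares its locus in the table, and SYN3 had 0.0284 to 0.0684 FPKM in the iEV libraries and is listed at 0 in each iGLI2 library.

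TIMP4 (chromosome 3, 12194568 to 12200412, minus strand), the inhibitor with the lowest mean in both groups, had 2.03, 2.26 and 2.90 FPKM in the iEV libraries and 6.28, 7.59 and 7.45 FPKM in the iGLI2 libraries. Every iGLI2 library was thus above every iEV library. It was 2.96-fold higher by the ratio of means, and on the log2(FPKM + 1) scale by 1.26 (standard error, SE, 0.12, adjusted p = 0.00157 in limma). Its host gene SYN2 had group means of 0.0920 (iEV) and 0.0738 FPKM (iGLI2).

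TIMP2, which both inhibits MMPs and, bound to MMP14, helps to activate the precursor of MMP2, had 86.3, 67.6 and 63.4 FPKM in the iEV libraries. In the iGLI2 libraries it had 59.9, 40.7 and 39.8 FPKM. The groups did not overlap, but replicate 1 was the highest library in each group, and the log2 fold change of -0.63 was not called (95% interval -1.11 to -0.16, adjusted p = 0.0681 in limma). Without iGLI2 replicate 1 it was -0.82 with an adjusted p of 0.0131. Over all alternatives its adjusted p lay between 0.00678, with the replicate number as a block, and 0.186. TIMP1, the most abundant inhibitor, had 271, 236 and 221 FPKM in the iEV libraries. Its iGLI2 values were 169, 211 and 222 FPKM and overlapped with these, and the log2 fold change was -0.28 (95% interval -0.60 to 0.05, adjusted p = 0.196 in limma).

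Added over the 4 inhibitors, the TIMP level was 472, 407 and 389 FPKM in the iEV libraries and 250, 267 and 278 FPKM in the iGLI2 libraries. The iGLI2 sums were 0.627 of the iEV sums on average. TIMP3 held 23.8% to 26.2% of the TIMP sum in iEV libraries and 2.75% to 5.74% in iGLI2 libraries. The share of TIMP1 was 56.7% to 58.0% in iEV and 67.8% to 80.0% in iGLI2 libraries, so that in iGLI2 cells TIMP1 was a larger part of a smaller total. TIMP4 went from 0.430% to 0.747% of the sum in iEV libraries to 2.52% to 2.84% in iGLI2 libraries. These sums and shares describe the members and were not tested.

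**Figure D2:**
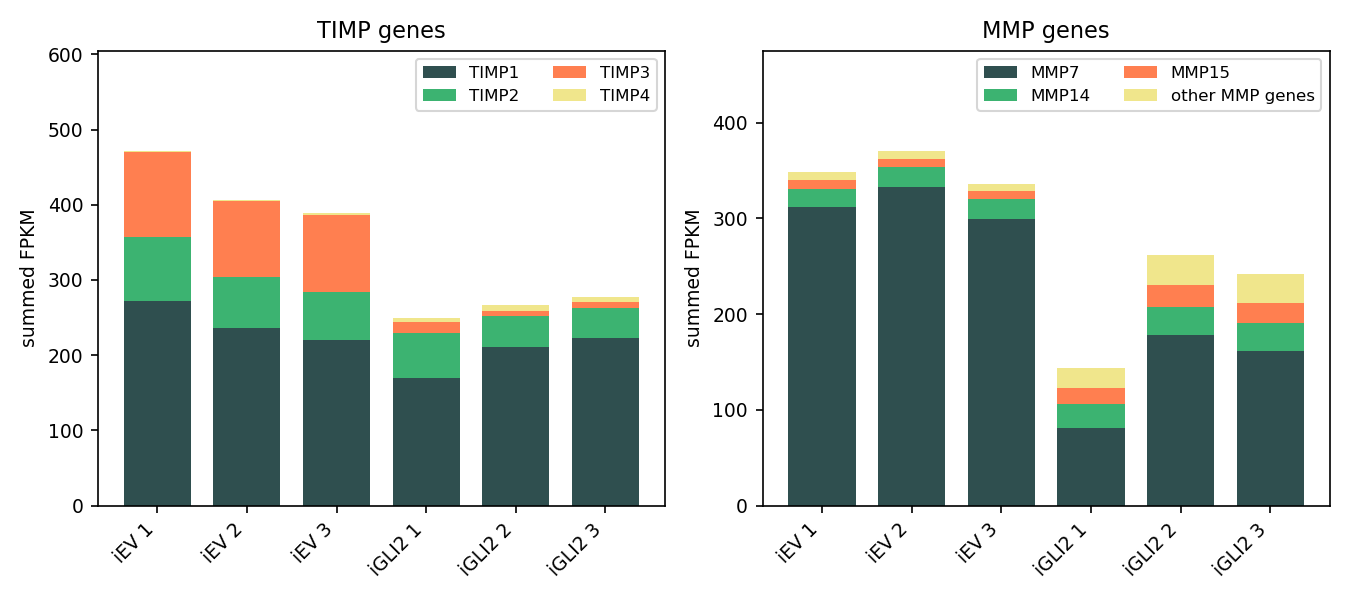
Stacked bars of FPKM summed over the TIMP genes (left) and the MMP genes (right) in each of the 6 libraries, starting at 0. The TIMP sum lay between 389 and 472 FPKM in iEV and between 250 and 278 FPKM in iGLI2 libraries, with a thin TIMP3 segment in the latter, and MMP7 makes up most of each MMP bar.

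Among the proteases, MMP7 (matrilysin, a small MMP without the hemopexin-like domain of most others, chromosome 11, 102391239 to 102401481, minus strand) had the highest level of all members in iEV cells. It had 312, 333 and 299 FPKM in the iEV libraries, and 80.7, 178 and 162 FPKM in the iGLI2 libraries. All iGLI2 libraries were lower, but iGLI2 replicate 1 stood well below the other two. The mean was 2.24-fold lower, with a log2 fold change of -1.24 (95% interval -1.97 to -0.51, adjusted p = 0.0339 in limma). The call was lost without iEV replicate 1, 2 or 3 or without iGLI2 replicate 3, at adjusted p-values of 0.0826, 0.111, 0.0967 and 0.0601, and with the number inside the library code as a block (0.0591). Without iGLI2 replicate 1 it held at -0.88 with an adjusted p of 0.00175, the lowest over the alternatives, where the highest was 0.111. MMP7 made up 88.9% to 89.8% of the MMP sum in iEV and 56.4% to 68.2% in iGLI2 libraries.

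The MMP sum without MMP7 was 36.4, 38.0 and 37.3 FPKM in the iEV libraries and 62.5, 83.1 and 79.6 FPKM in the iGLI2 libraries. It was thus 2.02 times as high in iGLI2 cells on average, whereas the sum with MMP7 was 0.612 of the iEV level. These sums were not tested. Within them single genes differed, and MMP28, MMP25, MMP23B and MMP8, all under 1 FPKM, had lower means in iGLI2 cells.

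The secreted collagenases, gelatinases and stromelysins included the members with the largest increases. MMP11 (stromelysin-3, which furin-like convertases activate before it leaves the cell, chromosome 22, 24110413 to 24126503, plus strand) had 0.680, 0.432 and 0.340 FPKM in the iEV libraries and 5.87, 7.18 and 8.44 FPKM in the iGLI2 libraries. The lowest iGLI2 library was several times above the highest iEV library. The ratio of means was 14.8, and the log2 fold change was 2.45 (SE 0.15, adjusted p = 0.000401 in limma), which the added 1 holds down because of the low iEV values. MMP2 (gelatinase A, which cuts denatured collagen and basement membrane collagen, chromosome 16, 55423612 to 55540603, plus strand) had 0.614, 0.752 and 0.640 FPKM in the iEV libraries. It had 3.66, 6.90 and 6.49 FPKM in the iGLI2 libraries, the lowest again in replicate 1. The ratio of means was 8.49, with a log2 fold change of 1.96 (SE 0.21, adjusted p = 0.00230 in limma). MMP11 and MMP2 had means under 1 FPKM in iEV cells and entered the test only through their iGLI2 level, so they had to differ.

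MMP1 (interstitial collagenase, chromosome 11, 102660132 to 102668891, minus strand) had 0.203, 0.500 and 0.269 FPKM in the iEV libraries and 2.31, 4.04 and 3.48 FPKM in the iGLI2 libraries. Its groups did not overlap, the ratio of means was 10.1, and the log2 fold change was 1.68 (SE 0.18, adjusted p = 0.00250 in limma). The pseudogene WTAPP1, which overlaps it on the other strand, had at most 0.132 FPKM in any library. MMP13, the other collagenase expressed, had 0.953, 1.06 and 0.853 FPKM in the iEV libraries and 1.64, 3.24 and 2.44 FPKM in the iGLI2 libraries. Its log2 fold change of 0.79 (SE 0.18) was called at a limma adjusted p of 0.0293, and the call was lost without any single library other than iGLI2 replicate 1, with adjusted p-values of 0.0668 to 0.101, and with the number inside the library code as a block (0.0570). For MMP1, MMP2 and MMP11 the call held under each alternative run in which they were tested, with highest adjusted p-values of 0.0160, 0.0151 and 0.00435 in limma. These genes and MMP13 had means under 1 FPKM in iEV cells and entered the test only through their iGLI2 level. They therefore had to differ, and the calls add no separate support.

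Other secreted members of the same classes were scarcely measured. The gelatinase MMP9 had 0.161, 0.151 and 0.0942 FPKM in the iEV libraries and 0.166, 0.381 and 0.317 FPKM in the iGLI2 libraries, so the groups did not overlap by a narrow margin. The stromelysin MMP10 had 0.0790, 0.0647 and 0.185 FPKM in iEV and 0.283, 0.243 and 0.147 FPKM in iGLI2 libraries, and here the groups overlapped. MMP3, the stromelysin beside MMP1, is listed at 0 in 5 libraries and at 0.0169 FPKM in iGLI2 replicate 3. The collagenase MMP8 had group means of 0.00830 (iEV) and 0.00351 FPKM (iGLI2).

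MMP1, MMP7 and MMP13 belong to a cluster of 9 MMP genes that spans 435.2 kb of chromosome 11, from 102391239 to 102826461 of hg19, all on the minus strand. MMP7 lies at its lower end and MMP13 at its upper end, with MMP20, MMP27, MMP8, MMP10, MMP1, MMP3 and MMP12 between them in that order. The cluster thus held 1 member that was called lower and 2 that were called higher in the same libraries. The calls of MMP7 and MMP13 were lost in some of the alternatives, and MMP1 and MMP13 entered the test only through their iGLI2 level. The 6 others had means of at most 0.136 (iEV) and 0.224 FPKM (iGLI2), and MMP12 and MMP27 are listed at 0.

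The membrane-type MMPs, which are held at the cell surface and include activators of MMP2, had 4 of their 6 genes expressed, 3 of them called as higher and MMP17 not called. MMP14, the best known activator of MMP2 (chromosome 14, 23305769 to 23318250, plus strand), had 18.5, 20.6 and 20.9 FPKM in the iEV libraries and 25.4, 28.8 and 28.4 FPKM in the iGLI2 libraries. The groups were separate by a modest distance, with a ratio of means of 1.38, a log2 fold change of 0.44 (SE 0.079) and a limma adjusted p of 0.0133. The call was lost without iEV replicate 2, iGLI2 replicate 2 or iGLI2 replicate 3 (adjusted p = 0.0527, 0.0593 and 0.0550). MMP15 (chromosome 16, 58059658 to 58080805, plus strand) had 9.65, 8.96 and 8.22 FPKM in the iEV libraries and 16.9, 23.1 and 20.9 FPKM in the iGLI2 libraries. Its ratio of means was 2.27 and its log2 fold change 1.09 (SE 0.12, adjusted p = 0.00289 in limma), and the call held under each alternative, at an adjusted p of 0.0186 or lower.

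MMP17, which is anchored by glycosylphosphatidylinositol, had 1.63, 1.66 and 1.88 FPKM in the iEV libraries and 2.06, 4.58 and 4.63 FPKM in the iGLI2 libraries. Replicates 2 and 3 stood apart from iEV cells and replicate 1 barely did. The log2 fold change of 0.75 was not called (95% interval 0.14 to 1.36, adjusted p = 0.0834 in limma). Without iGLI2 replicate 1 it was 1.04 with an adjusted p of 0.00124, and with small RNA genes left out and the libraries rescaled it was 0.80 with an adjusted p of 0.0347. Over the alternatives the adjusted p lay between 0.00124 and 0.216. MMP24 had 2.43, 2.58 and 2.40 FPKM in the iEV libraries and 3.19, 3.15 and 3.37 FPKM in the iGLI2 libraries. This small difference, a log2 fold change of 0.29 (SE 0.067, adjusted p = 0.0305 in limma), was lost without any single library other than iGLI2 replicate 1, at adjusted p-values up to 0.113, with no filter on low values (0.0547) and with the number inside the library code as a block (0.0662). Its antisense partner MMP24-AS1, at the same locus in the table, averaged 14.0 ± 0.819 FPKM in iEV libraries and 16.9 ± 0.854 FPKM in iGLI2 libraries (mean ± SD, n = 3). MMP24-AS1 was itself called as higher, with a log2 fold change of 0.25 (adjusted p = 0.0479 in limma). Without stated use of strand the reads of the pair cannot be told apart where they overlap. MMP25 was low, with group means of 0.290 (iEV) and 0.271 FPKM (iGLI2), and MMP16 is listed at 0. Summed over the class, the membrane-type level was 32.4, 34.2 and 33.8 FPKM in the iEV libraries and 47.8, 60.0 and 57.5 FPKM in the iGLI2 libraries.

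**Figure D3:**
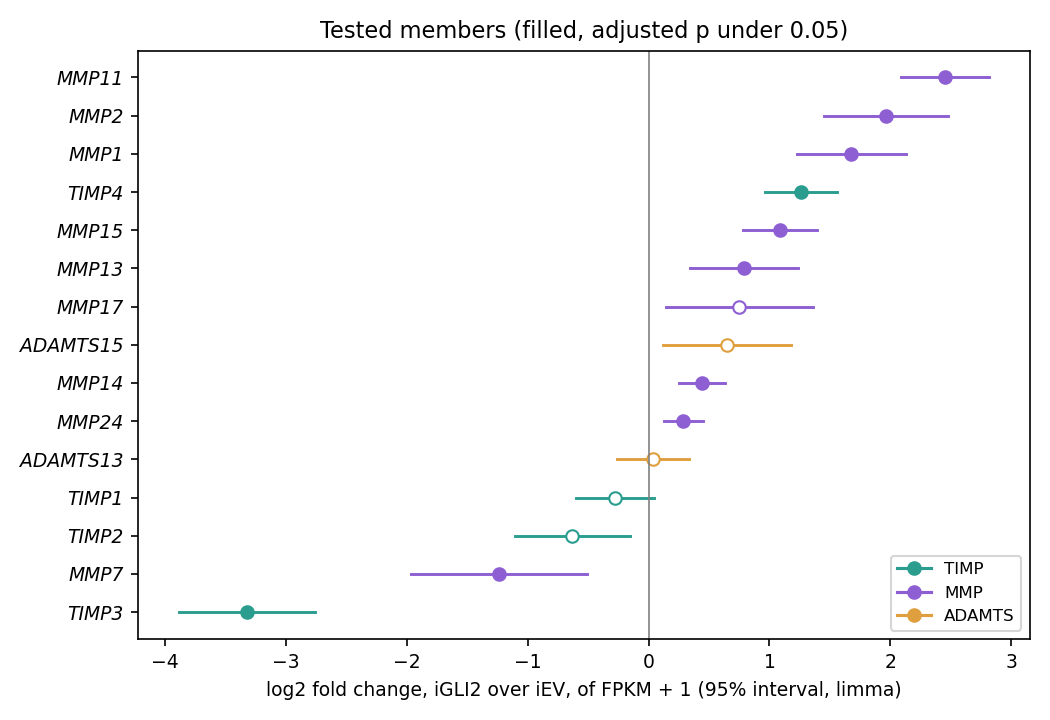
Log2 fold change of FPKM + 1 in iGLI2 over iEV cells for the 15 expressed members, with 95% intervals from limma, colours for the families and filled points for an adjusted p under 0.05. TIMP3 lies at -3.32 and MMP7 at -1.24 on the left, and MMP11 at 2.45, MMP2 at 1.96 and MMP1 at 1.68 on the right.

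Neither of the 2 expressed ADAMTS genes was called. ADAMTS15, a protease that cuts matrix proteoglycans (chromosome 11, 130318540 to 130346540, plus strand), had 4.91, 2.48 and 2.62 FPKM in the iEV libraries and 6.29, 5.30 and 5.29 FPKM in the iGLI2 libraries. The groups did not overlap, but iEV replicate 1 lay near the iGLI2 libraries. The log2 fold change was 0.65 (95% interval 0.12 to 1.18, adjusted p = 0.0834 in limma). Without iEV replicate 1 it was 0.90 with an adjusted p of 0.00630, within a range of 0.00630 to 0.232 over the alternatives. ADAMTS13, which cuts von Willebrand factor in blood, had 0.907, 1.13 and 1.35 FPKM in the iEV libraries. Its iGLI2 values of 0.982, 1.24 and 1.32 FPKM covered the same range, with a log2 fold change of 0.04 (95% interval -0.26 to 0.33, adjusted p = 0.861 in limma).

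Among the 13 members of 0.1 to under 1 FPKM, the groups did not overlap for 5 (38.5%), beside 33.4% of all 3357 genes of that level, which is near the background. ADAMTS6, ADAMTS7 and MMP9 were higher in each iGLI2 library and ADAMTS17 and MMP28 were lower in each. ADAMTS17 had 0.484, 0.816 and 0.629 FPKM in the iEV libraries and 0.188, 0.287 and 0.280 FPKM in the iGLI2 libraries, a mean 2.56-fold lower. With no filter on low values it was the only one of the 13 to be called in limma, at an adjusted p of 0.0301, beside 17% of the 3357 genes. ADAMTS7, which cuts cartilage oligomeric matrix protein, had 0.0991, 0.203 and 0.307 FPKM in iEV and 0.383, 0.532 and 0.495 FPKM in iGLI2 libraries (adjusted p = 0.0523 in the same limma fit). MMP28 (epilysin) had 0.486, 0.167 and 0.172 FPKM in iEV and 0.123, 0.0327 and 0.0989 FPKM in iGLI2 libraries, so that iEV replicate 1 set most of its iEV mean. ADAMTS6 had 0.330, 0.384 and 0.380 FPKM in iEV and 0.481, 0.474 and 0.429 FPKM in iGLI2 libraries, a gap smaller than the range within either group. The groups overlapped for the 8 others, among them MMP10 and MMP25. With the iEV mean first, ADAMTS9 averaged 0.536 and 0.717 FPKM, ADAMTS12 averaged 0.382 and 0.218 FPKM, and ADAMTS19 averaged 0.238 and 0.287 FPKM. ADAMTS14, at 0.529 and 0.524 FPKM, and MMP19, at 0.603 and 0.619 FPKM, had nearly equal means, and MMP20 averaged 0.136 and 0.158 FPKM.

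**Figure D4:**
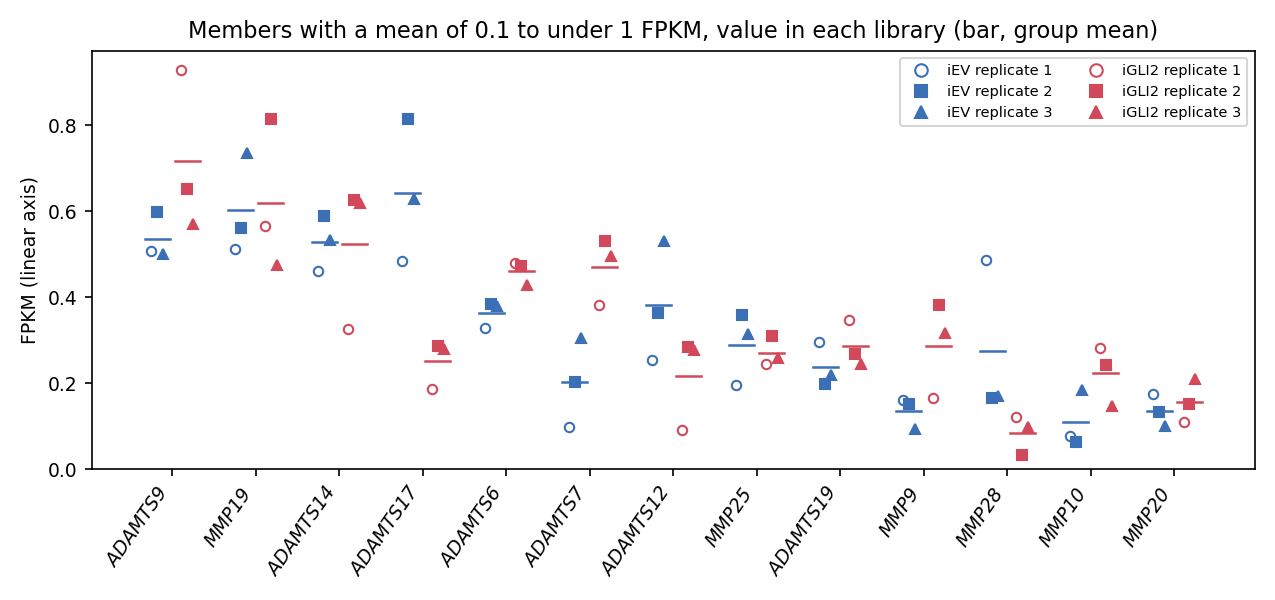
FPKM on a linear axis for the 13 members with a mean of 0.1 to under 1 FPKM, drawn as for the expressed members. ADAMTS17 falls from between 0.484 and 0.816 FPKM in iEV to between 0.188 and 0.287 FPKM in iGLI2 libraries, and most other genes have groups that overlap or nearly touch.

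The 9 members above 0 with means under 0.1 FPKM were ADAMTS2, ADAMTS3, ADAMTS4, ADAMTS8, ADAMTS18, ADAMTS20, MMP3, MMP8 and MMP23B. MMP23B is a near copy of MMP23A, which is annotated as a pseudogene, so reads could be split between them. Those listed at 0 throughout were ADAMTS1, ADAMTS5, ADAMTS10, ADAMTS16, MMP12, MMP16, MMP21, MMP23A, MMP26 and MMP27. ADAMTS1, ADAMTS4 and ADAMTS5 are the best known aggrecanases, and of these ADAMTS4 alone has a value above 0, with 0.0457 to 0.121 FPKM over the 6 libraries. Since KRT8 and KRT18 are also at 0, the listing does not tell whether these genes were silent.

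The order of the levels shifted between the groups. In iEV cells MMP7 was first, followed by TIMP1, TIMP3, TIMP2, MMP14 and MMP15. In iGLI2 cells TIMP1 was first, followed by MMP7, TIMP2, MMP14, MMP15 and TIMP3, while MMP11 had moved from rank 14 to rank 7 of the 15 and MMP2 from rank 13 to rank 9. The values of TIMP1 and MMP7 were apart in iEV libraries and overlapped in iGLI2 libraries. The iGLI2 values of TIMP3, MMP11 and TIMP4, ranked 6 to 8, also overlapped, so the order among them is not beyond the spread of the libraries. The same holds for the rank of MMP2. Its iGLI2 values overlapped those of MMP11, TIMP4 and ADAMTS15, and its iEV values overlapped those of MMP11.

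Within the iGLI2 group, replicate 1, with the lowest GLI2 level, was the library nearest to the iEV mean for 8 of the 10 called members, beside 46% of all 2742 called genes. The exceptions were MMP7, for which it lay farthest from iEV cells, and MMP24. Among the 8 were TIMP3, MMP1, MMP2 and MMP15, and this is a description of 3 libraries without a test.

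Genes around the members were taken from a list of 36 related proteases, activators, receptors and inhibitors, of which 21 were tested. Of these, 7 were higher, 4 lower and 10 not called, so that 52.4% were called beside 21.9% of all genes tested. The median log2 fold change was -0.07 beside -0.015 over all genes tested. Without iGLI2 replicate 1, 8 were higher and 7 lower, in a fit that called 3744 of 12495 genes. Among the 7 higher ones, ADAM19, LRP1, PCSK5 and SPOCK2 passed the filter only through their iGLI2 level, so they had to differ. The list was chosen with earlier results of these data known, so its share is a description and not a test. Pairs of means are given with iEV cells first. The plasminogen activators were among the lower ones. PLAU (urokinase) averaged 329 ± 56.4 FPKM in iEV libraries and 114 ± 6.51 FPKM in iGLI2 libraries (mean ± SD, n = 3), a log2 fold change of -1.51 (adjusted p = 0.00133 in limma). PLAT (tissue plasminogen activator) had 49.8 ± 4.74 and 22.8 ± 1.14 FPKM (mean ± SD, n = 3) and a log2 fold change of -1.09 (adjusted p = 0.000903 in limma). The urokinase receptor PLAUR moved the other way, with a log2 fold change of 0.47 (adjusted p = 0.00595 in limma).

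Proprotein convertases, which remove the propeptides of membrane-type MMPs and ADAMTS proteases, differed among themselves. PCSK5 rose from 0.285 ± 0.0561 to 3.47 ± 0.308 FPKM (mean ± SD, n = 3), a log2 fold change of 1.80 (adjusted p = 0.000291 in limma), and PCSK6 fell from 4.02 ± 0.0720 to 2.19 ± 0.0816 FPKM (mean ± SD, n = 3), a log2 fold change of -0.65 (adjusted p = 0.00163 in limma). FURIN, at 54.1 ± 3.11 and 65.1 ± 9.20 FPKM (mean ± SD, n = 3), was not called (adjusted p = 0.182 in limma). BMP1, a procollagen C-proteinase, was lower, with a log2 fold change of -0.38 (adjusted p = 0.0114 in limma), a call that was lost without iEV replicate 2 or 3 or iGLI2 replicate 2, at adjusted p-values of 0.0530, 0.0538 and 0.0531.

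Of the membrane-bound ADAM proteases, ADAM19 was higher, from 0.898 ± 0.152 to 4.25 ± 0.132 FPKM (mean ± SD, n = 3), with a log2 fold change of 1.47 (adjusted p = 0.000383 in limma). ADAM17, a target of TIMP3, had 16.9 ± 0.612 and 16.1 ± 0.404 FPKM (mean ± SD, n = 3) and was not called, and neither were ADAM8, ADAM9, ADAM10, ADAM15 and ADAM28. Of these, ADAM9, ADAM15 and ADAM17 were lower in each iGLI2 library, with limma adjusted p-values of 0.0604, 0.0532 and 0.426. The groups overlapped for ADAM8, ADAM10 and ADAM28. The testicans SPOCK2 and SPOCK3, matrix proteoglycans related to SPARC, were higher with log2 fold changes of 2.41 and 1.13 (adjusted p = 0.000968 and 0.0206 in limma). LRP1, an endocytic receptor that clears MMPs and TIMP3, was higher as well, at 0.652 ± 0.213 and 3.06 ± 1.43 FPKM (mean ± SD, n = 3) with a limma adjusted p of 0.0349. This call was lost without any single library other than iGLI2 replicate 1, at adjusted p-values up to 0.104, and with the number inside the library code as a block (0.0516). That of SPOCK3 was lost without iEV replicate 2 or 3 or iGLI2 replicate 2, at 0.0798, 0.0772 and 0.0584. CD44, a surface receptor that can dock MMP9, had a log2 fold change of 0.86 (adjusted p = 0.00138 in limma). The membrane-anchored MMP inhibitor RECK was under the level tested, at 0.546 and 0.467 FPKM. ADAM19, LRP1, PCSK5 and SPOCK2 were under 1 FPKM in iEV cells and entered the test through their iGLI2 level.

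**Figure D5:**
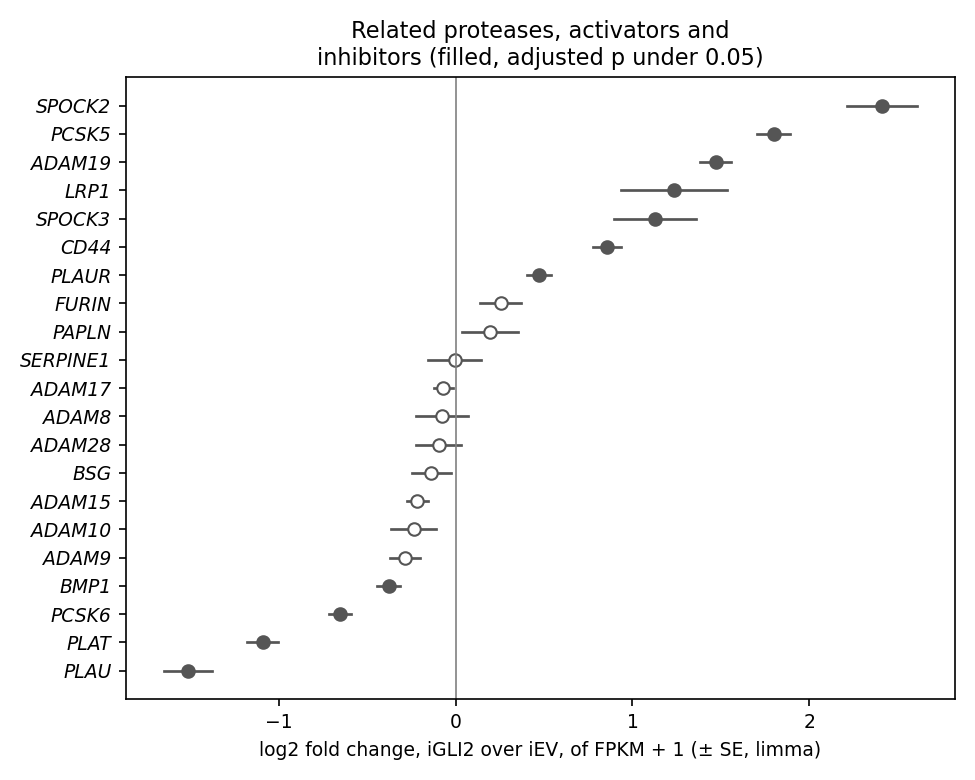
Log2 fold change of FPKM + 1 in iGLI2 over iEV cells for the 21 tested genes of the list of related proteases, activators and inhibitors, with standard errors (SE) from limma and filled points for an adjusted p under 0.05. SPOCK2 at 2.41 and PCSK5 at 1.80 lie on the right, and PLAU at -1.51 and PLAT at -1.09 on the left.

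A second list of 20 known substrates of the proteases had 12 genes tested, of which 6 were higher, 1 lower and 5 not called. This is 58.3% called, beside 21.9% of all genes tested. This list too was chosen with earlier results of these data known. The paper had already named SPP1 among the transcripts most raised by GLI2, so the share is a description and not a test. SPP1 (osteopontin, which MMPs can cut) had the largest change, a log2 fold change of 7.50 (adjusted p = 0.000132 in limma). THBS1 rose from 4.20 ± 0.792 to 16.4 ± 4.54 FPKM and LTBP1 from 2.36 ± 0.282 to 5.82 ± 0.815 FPKM (mean ± SD, n = 3), with limma adjusted p-values of 0.00466 and 0.00289. FN1 (fibronectin) was the lower one, with a log2 fold change of -0.67 (adjusted p = 0.00449 in limma). COL4A1 was higher by 0.62 on the log2 scale (adjusted p = 0.00509 in limma). CDH1 (E-cadherin), also an epithelial marker, was higher by 0.37 (adjusted p = 0.0169 in limma), and lost the call without iEV replicate 2 or 3 or iGLI2 replicate 2 or 3, at adjusted p-values of 0.0659 to 0.0811. Of the fibrillar collagens that the procollagen N-proteinases ADAMTS2, ADAMTS3 and ADAMTS14 process, COL1A1 alone was tested and was higher, with 1.41 ± 0.127 and 2.69 ± 0.365 FPKM (mean ± SD, n = 3, adjusted p = 0.0110 in limma, 0.0511 without iEV replicate 2), and COL1A2 and COL3A1 had means under 0.01 FPKM. COL2A1, of cartilage, was under the level tested and lower in each iGLI2 library, at 0.484, 0.348 and 0.264 FPKM in iEV and 0.156, 0.0511 and 0.0958 FPKM in iGLI2 libraries. The large aggregating proteoglycans VCAN and BCAN were not called, and ACAN and NCAN averaged under 0.01 FPKM over all 6 libraries.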

How the data were processed

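RNA of YAPC cells kept in Dox for 6 days was sequenced in 6 libraries. The authors used Trimmomatic for trimming, TopHat2 for alignment to hg19 and Cuffdiff 2.1.1 for expression values (tool names and version per the submitters' processing notes and the paper). The annotation and the scaling between libraries are not given in the sources used here. The deposited FPKM values are named in no header, and the unit was read from their form. Every column of values had a sample. Of 27024 entries, 1252 outside the primary chromosomes and 330 with a higher entry of the same name were left out. Depth is unknown, so no counting error or detection limit is given.

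Values were tested as log2(FPKM + 1) in the 12493 genes that averaged 1 FPKM or more, with limma 3.58.1 in R 4.3.3 (intensity trend, condition as the only term, two-sided, Benjamini-Hochberg adjustment over all genes tested, threshold 0.05), tested on simulated data first. With 3 libraries a group, the smallest two-sided p of an exact permutation test is 0.1. Loci are from GENCODE release 44 lifted to GRCh37, the build of hg19, where all 47 members matched by name and place. Promoter sequences are from RefSeq. Python 3.11.15, pandas 2.3.3, numpy 2.4.6 and matplotlib 3.10.9 were used.

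All expressed members are named with their values, members of 0.1 to under 1 FPKM by their means or values, and others by name. Of the lists of related genes and substrates, up to 8 and up to 5 called genes with the largest change are named by rule, and BMP1, CDH1, COL1A1, PCSK6, PLAUR and the list genes given as not called or not tested were added after their values were seen. Members and lists were chosen with earlier results of these data known. Alternatives were 3 other scalings, a pseudocount of 0.1, no filter, a mean of at least 5 FPKM, 2 blocks, each library left out, a 2-fold requirement and no trend. The values of the list of substrates and of the called genes of both lists were added to these later.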

Additional observations from a re-analysis of the deposited data

How the results depend on the processing

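With each library left out in turn, between 1222 and 3744 genes were called, with between 5 and 9 members higher and between 1 and 3 lower, between 5 and 8 genes of the list of related proteases higher and between 3 and 7 lower, and between 4 and 7 substrates higher. A requirement of at least 2-fold, set on FPKM + 1, left 527 genes, 5 members higher, 2 related genes lower, 3 substrates higher and 0 lower. By the ratio of mean FPKM, 6 of the members called higher were at least 2-fold. MMP13, with a ratio of 2.55 and a log2 fold change of 0.79, was dropped because of the added 1. A mean of at least 5 FPKM left fewer genes to test, with 2 members higher, 2 related genes higher and 2 lower, and 0 substrates lower. With no filter on low values, 3 substrates were lower. With the number inside the library code used as a blocking term, 6 members were higher and 1 lower, since MMP7, MMP13 and MMP24 had limma adjusted p-values of 0.0591, 0.0570 and 0.0662; the cause was not tested. LRP1 was lost there too (0.0516), and MMP24 also with no filter (0.0547). ADAMTS13 changed sign under quantile normalization (-0.030), and ranged from -0.041 to 0.11 over the left-out libraries (-0.010 without iGLI2 replicate 3), and was called under none of them.

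With the replicate number as a block, 3928 genes were called instead of 2742, and 9 members were higher and 3 lower, as TIMP2 and ADAMTS15 passed. The sources do not say whether the numbers pair the libraries. Deviations of same-numbered libraries correlated at 0.204, 0.0919 and 0.0276, and those of differently numbered ones at -0.193 to 0.117, which does not settle it. In each group, replicates 1 and 2 share the number inside the library code, whose meaning is not given. TIMP1, TIMP3, TIMP4, MMP1, MMP2, MMP11 and MMP15 kept their direction and their side of the threshold under all alternatives in which they were tested. Of these, MMP1, MMP2 and MMP11 entered the test only through their iGLI2 level. The number of fragments behind the low values is unknown.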
